A study of Mus musculus with 6 samples.

Results

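Triglycerides and the main membrane phospholipids of the hepatocyte are built from the same glycerol backbone. Acyl groups are added to glycerol-3-phosphate until phosphatidate is formed, and the lipins remove its phosphate to give diacylglycerol. Diacylglycerol then becomes triglyceride by a further acylation, or phosphatidylcholine when it accepts phosphocholine from CDP-choline. The mRNA levels of 10 enzymes of these steps, of 23284 genes counted, were compared between livers expressing Y67F-FXR and livers expressing FXR-WT. The 10 genes were taken from a list of enzymes by their symbols, with earlier results of these data known. They are Gpam and Agpat2 (acylation of glycerol-3-phosphate and lysophosphatidate), Lpin1 and Lpin2 (phosphatidate phosphatases), Dgat1, Dgat2 and Mogat1 (acylation of diacylglycerol and monoacylglycerol), and Chka, Pcyt1a and Lpcat3 (synthesis and remodelling of phosphatidylcholine). All 10 were found once in the files, and all passed the filter on low counts.

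The mice were FXR floxed males that received 2 AAV8 vectors by tail vein at 8 weeks of age. Both groups received AAV-TBG-Cre, which deletes the floxed FXR gene under the hepatocyte-specific TBG promoter. The FXR-WT group (3 livers) also received AAV-TBG-WT FXR, and the Y67F-FXR group (3 livers) AAV-TBG-Y67F FXR, in which tyrosine 67 is replaced so that it cannot be phosphorylated. Then, 4 weeks later, all mice were fed chow with 0.5% cholic acid, an FXR-activating bile acid, for 6 h, so that the comparison holds no liver without cholic acid and none without Cre. The vectors act on hepatocytes, and the other cells of the liver keep their own FXR gene.

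Library totals lay between 19551113 and 22053320 reads on genes. Levels are given as CPM, the reads of a gene scaled to a common library size by TMM factors, and levels of different genes as CPM per kb of exon length. Nr1h4, the FXR gene, averaged 186 ± 30.2 CPM in FXR-WT and 175 ± 9.84 CPM in Y67F-FXR livers (SD, n = 3 each), and its reads do not tell the mouse gene from the vectors. The paper describes its Flag-FXR as human, and how fully reads of the vectors were counted on the mouse gene was not tested. The summed level of 6 hepatocyte markers was 93231 to 108499 CPM in FXR-WT and 92682 to 114625 CPM in Y67F-FXR livers. The summed levels of the lists for adipocytes, Kupffer cells and leukocytes, stellate cells, sinusoidal endothelial cells, cholangiocytes and erythrocytes overlapped between the groups, and of 32 marker genes tested in all lists none was called by edgeR's quasi-likelihood (QL) method. Before adjustment 4 of them had a p under 0.05, as had 13.4% of all tested genes. All 4 were fitted lower in Y67F-FXR livers, 3 of stellate cells (Lrat, Col1a1 and Acta2) and 1 of endothelial cells (Lyve1). Lrat just missed the threshold (edgeR QL, adjusted p = 0.054) and was called by edgeR QL with RLE factors, with no filter on low counts and with offsets for gene length, and also by DESeq2 and edgeR's likelihood ratio test. It was measured at 18.7, 13.1 and 17.9 CPM in FXR-WT and 8.51, 5.78 and 8.11 CPM in Y67F-FXR replicates 1 to 3. Acta2 was at 9.88 CPM in FXR-WT replicate 1 and between 0.826 and 1.60 CPM in the other 5 livers, with overlapping groups. The other stellate markers, Reln, Dcn and Des, had log2 fold changes of 0.04, -0.10 and -0.16. Those of the other endothelial markers, Stab2, Pecam1, Clec4g and Kdr, were 0.12, 0.01, -0.13 and -0.11. The part of these cells in the results was not tested. These stellate and endothelial genes were named after their values were seen. Lep was at 0 in all 6 libraries, and Hba-a1 and Hbb-b1 were also listed at 0, where reads of near-identical globin copies would not have been counted. Because these are whole livers, fewer cells of a type and less RNA per cell cannot be told apart. Short genes were high in FXR-WT replicate 1 and Y67F-FXR replicate 2, and low in FXR-WT replicate 3 and Y67F-FXR replicate 1. In the shortest 20% of genes the median deviation was 0.20, 0.22, -0.18 and -0.20 on the log2 scale in these 4 libraries.

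Of the 10 enzymes, 1 passed the threshold, Lpcat3, which was higher in Y67F-FXR livers. To pass, a gene needed a p under 0.05 by edgeR QL after Benjamini-Hochberg (BH) adjustment over 12453 genes, and a fitted fold over 1.5. Of all tested genes, 0.972% passed it, 68 higher and 53 lower (0.546% and 0.426%), and scaling by library totals instead gave 52 higher and 68 lower. A further 4 enzymes, Lpin1, Lpin2, Mogat1 and Dgat1, had fitted folds between 1.45 and 2.20 and did not pass after adjustment. In these 4 and in Lpcat3, every Y67F-FXR liver lay above every FXR-WT liver. This was so for 5 of the 10 enzymes, against 10.2% of all tested genes in the same direction and 20.6% in either. The same 5 had an unadjusted p under 0.05, as had 6.75% of all tested genes in that direction and 13.4% in either. The median log2 fold change was 0.34 over the 10 enzymes and 0.01 over all tested genes. Because the enzymes were chosen with earlier results of these data known, these comparisons with all tested genes are descriptive. Gpam, Agpat2, Dgat2, Chka and Pcyt1a had overlapping groups.

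**Figure D1:**
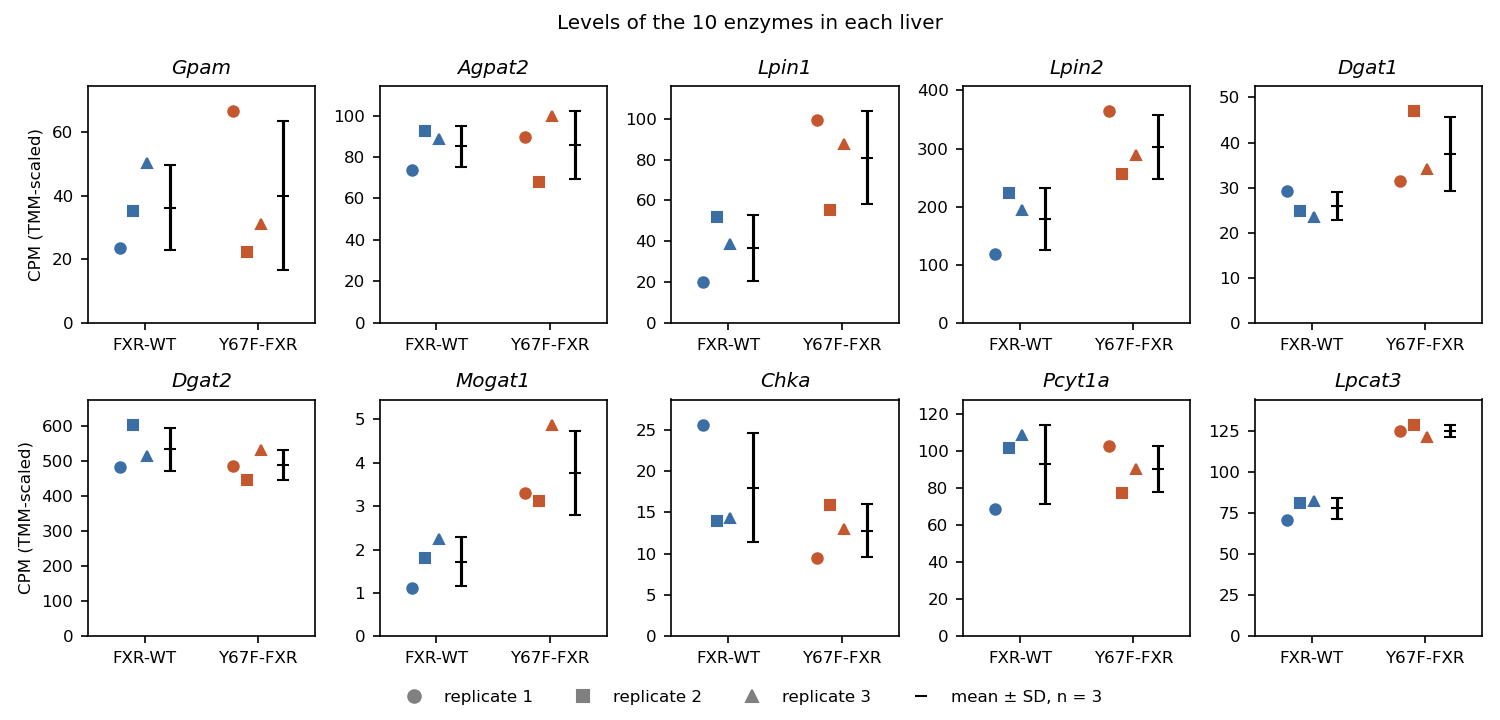
CPM (vertical axes, from 0, TMM-scaled) of each enzyme in the 3 FXR-WT and 3 Y67F-FXR livers, with a point shape for each replicate number and bars for the mean ± SD (n = 3). In Lpcat3 the Y67F-FXR livers sit between 121 and 129 CPM and the FXR-WT livers between 70.9 and 82.4 CPM, while in Gpam the 3 livers of each group spread widely and overlap.

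Lpcat3 encodes the lysophosphatidylcholine acyltransferase that places polyunsaturated acyl chains into phosphatidylcholine (mm9, chromosome 6, 124613122 to 124654734, 13 exons). It was measured at 70.9, 81.4 and 82.4 CPM in FXR-WT replicates 1 to 3. In Y67F-FXR replicates 1 to 3 it was measured at 125, 129 and 121 CPM. These were the tightest values of the 10 enzymes in both groups, with a coefficient of variation of 8.15% in FXR-WT and 3.00% in Y67F-FXR livers. The group mean rose from 78.2 ± 6.37 to 125 ± 3.76 CPM (SD, n = 3 each), a fitted fold of 1.60 with a 95% interval of 1.33 to 1.92. On the log2 scale the difference was 0.68 with a standard error of 0.115 (edgeR QL, BH-adjusted p = 0.0429), and Lpcat3 ranked 106 of the 12453 genes by p. The call was lost when any 1 of the 6 livers was left out, with adjusted p from that edgeR test between 0.0999 (without FXR-WT replicate 1) and 0.186 (without Y67F-FXR replicate 3), although the log2 fold change stayed between 0.61 and 0.72. Scaled by library totals, Lpcat3 had an adjusted p of 0.0739 in edgeR, and with offsets for gene length 0.0143. With a block for replicate number the call was also lost (adjusted p = 0.232 in edgeR). Lpcat3 shares 289 bp of exon, 11.6% of its length, with Emg1 on the other strand, and reads on these bases counted for neither gene. Emg1 averaged 46.2 ± 9.94 CPM in FXR-WT and 39.3 ± 6.16 CPM in Y67F-FXR livers (SD, n = 3 each), with overlapping groups.

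The lipins convert phosphatidate to diacylglycerol, and lipin 1 also acts in the nucleus with the coactivator PGC-1alpha. Lpin1 (mm9, chromosome 12, 16542475 to 16596576, 22 exons) was measured at 19.8, 51.7 and 38.8 CPM in FXR-WT replicates 1 to 3 and at 99.4, 55.5 and 87.8 CPM in Y67F-FXR replicates 1 to 3. The groups were separated by a narrow gap, between FXR-WT replicate 2 and Y67F-FXR replicate 2. The means were 36.8 ± 16.1 and 80.9 ± 22.7 CPM (SD, n = 3), with a fitted fold of 2.20 (95% interval 1.26 to 3.84). This did not pass the threshold (edgeR QL, BH-adjusted p = 0.198). Without FXR-WT replicate 1, the lowest liver, the log2 fold change of Lpin1 was 0.83 in place of 1.14. Lpin1 was called when FXR-WT replicate 1 and Y67F-FXR replicate 2, the libraries with high short genes, were both left out, an omission chosen after seeing the data, with a log2 fold change of 1.04 (edgeR QL, BH-adjusted p = 0.0196, in a fit that called 1.62% of its genes). The joint omission of FXR-WT replicate 3 and Y67F-FXR replicate 1, also chosen after seeing the data, gave 1.00 and no call (edgeR QL, BH-adjusted p = 0.542).
Lpin2 (mm9, chromosome 17, 71533318 to 71599158, 21 exons) was measured at 119, 223 and 194 CPM in FXR-WT and at 364, 257 and 289 CPM in Y67F-FXR replicates 1 to 3. The livers fell in the same order as for Lpin1, with FXR-WT replicate 1 lowest and Y67F-FXR replicate 1 highest. The means were 179 ± 53.6 and 303 ± 54.9 CPM (SD, n = 3), a fitted fold of 1.70 (95% interval 1.16 to 2.49). This did not pass the threshold (edgeR QL, BH-adjusted p = 0.212). Lpin1 and Lpin2 have exon lengths of 5725 and 5868 bp, and their lowest FXR-WT and lowest Y67F-FXR values were in the 2 libraries with high short genes. With offsets for gene length their log2 fold changes were 1.12 and 0.75, and their adjusted p in edgeR 0.0896 and 0.0767.

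Diacylglycerol acyltransferases make the last bond of a triglyceride, and the liver has a pair of them, which are unrelated in sequence. Dgat1 (mm9, chromosome 15, 76332445 to 76342248, 17 exons) was measured at 29.3, 24.7 and 23.6 CPM in FXR-WT replicates 1 to 3. In Y67F-FXR replicates 1 to 3 it was measured at 31.5, 46.9 and 34.1 CPM, so that Y67F-FXR replicate 1 lay just above the highest FXR-WT liver. The means were 25.9 ± 3.04 and 37.5 ± 8.24 CPM (SD, n = 3). The fitted fold of Dgat1 was 1.45 (95% interval 1.09 to 1.93), which did not pass (edgeR QL, BH-adjusted p = 0.237). The log2 fold change of Dgat1 was 0.33 without Y67F-FXR replicate 2, its highest liver, and 0.53 with it.
Dgat2 (mm9, chromosome 7, 106302173 to 106331223, 8 exons) was measured at 483, 603 and 513 CPM in FXR-WT and at 485, 446 and 531 CPM in Y67F-FXR replicates 1 to 3, with overlapping groups. Its fitted fold was 0.914 with a 95% interval from 0.736 to 1.14, which leaves out a fold of 1.5 in either direction.
Mogat1, which acylates monoacylglycerol (mm9, chromosome 1, 78507635 to 78534748, 7 exons), was the least abundant enzyme of the 10 in CPM, with 23 to 52 reads in FXR-WT and 57 to 102 reads in Y67F-FXR libraries. Its values were 1.12, 1.79 and 2.25 CPM in FXR-WT and 3.31, 3.11 and 4.87 CPM in Y67F-FXR replicates 1 to 3. Every Y67F-FXR liver lay above the highest FXR-WT liver, and the means were 1.72 ± 0.565 and 3.76 ± 0.964 CPM (SD, n = 3). The fitted fold of Mogat1 was 2.18 (95% interval 1.33 to 3.57), which did not pass (edgeR QL, BH-adjusted p = 0.161). With DESeq2, Lpin1 and Mogat1 were also called, with adjusted p of 0.0293 and 0.0361, and with edgeR's likelihood ratio test with 0.0435 and 0.0279. These tests called 3.44% and 3.59% of all tested genes.

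**Figure D2:**
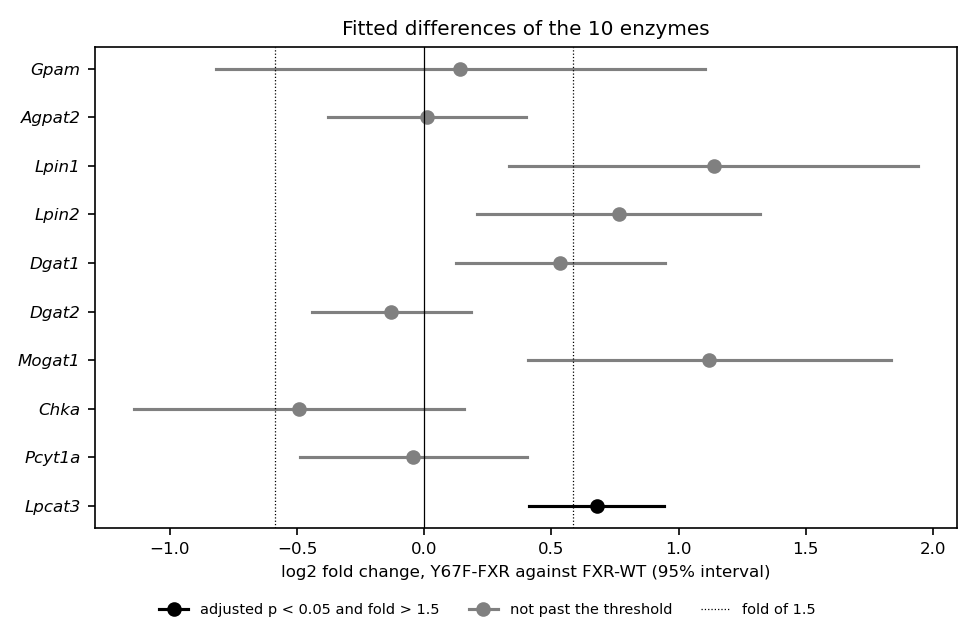
Log2 fold change of each enzyme (horizontal axis, Y67F-FXR against FXR-WT, points) with its 95% interval (lines) from edgeR's quasi-likelihood fit of 3 against 3 livers. The black point, Lpcat3 at 0.68, passed the threshold, and the intervals of Lpin1, Lpin2, Mogat1 and Dgat1 also lie above 0 before adjustment for the number of genes tested.

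Gpam and Agpat2, which act in the initial acylations, had overlapping groups. Gpam, the mitochondrial acyltransferase of the opening step (mm9, chromosome 19, 55144224 to 55173937, 21 exons), was measured at 23.4, 35.0 and 50.1 CPM in FXR-WT and at 66.4, 22.2 and 31.1 CPM in Y67F-FXR replicates 1 to 3. Its highest and its lowest liver were both of the Y67F-FXR group, and the 3 Y67F-FXR values spanned 2.99 times. The log2 fold change was 0.14 (95% interval -0.82 to 1.10), and it was -0.44 without Y67F-FXR replicate 1 and -0.10 without FXR-WT replicate 1. Without any 1 of the other livers it lay between 0.12 and 0.45. Agpat2, which forms phosphatidate (mm9, chromosome 2, 26449107 to 26459730, 6 exons), was measured at 73.9, 92.6 and 88.8 CPM in FXR-WT and at 89.9, 67.8 and 99.5 CPM in Y67F-FXR replicates 1 to 3. Its log2 fold change was 0.01 (95% interval -0.38 to 0.40), and the sign changed with the scaling, to -0.057 with library totals.

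The enzymes of the CDP-choline route to phosphatidylcholine also overlapped between groups. Pcyt1a, the rate-limiting enzyme, which makes CDP-choline (mm9, chromosome 16, 32431007 to 32475151, 9 exons), was measured at 68.8, 102 and 109 CPM in FXR-WT and at 103, 77.7 and 90.6 CPM in Y67F-FXR replicates 1 to 3. Its log2 fold change was -0.04 (95% interval -0.49 to 0.40), and with 1 liver left out it ranged from -0.22 to 0.084. Chka, a choline kinase (mm9, chromosome 19, 3851773 to 3894367, 11 exons), was measured at 25.6, 14.0 and 14.3 CPM in FXR-WT and at 9.53, 15.9 and 12.9 CPM in Y67F-FXR replicates 1 to 3. FXR-WT replicate 1 stood above the other 5 livers, and without it the log2 fold change was -0.15 in place of -0.49 (95% interval -1.14 to 0.16). The intervals of both enzymes included 0. Whether their change differed from that of Lpcat3 was not tested.

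**Figure D3:**
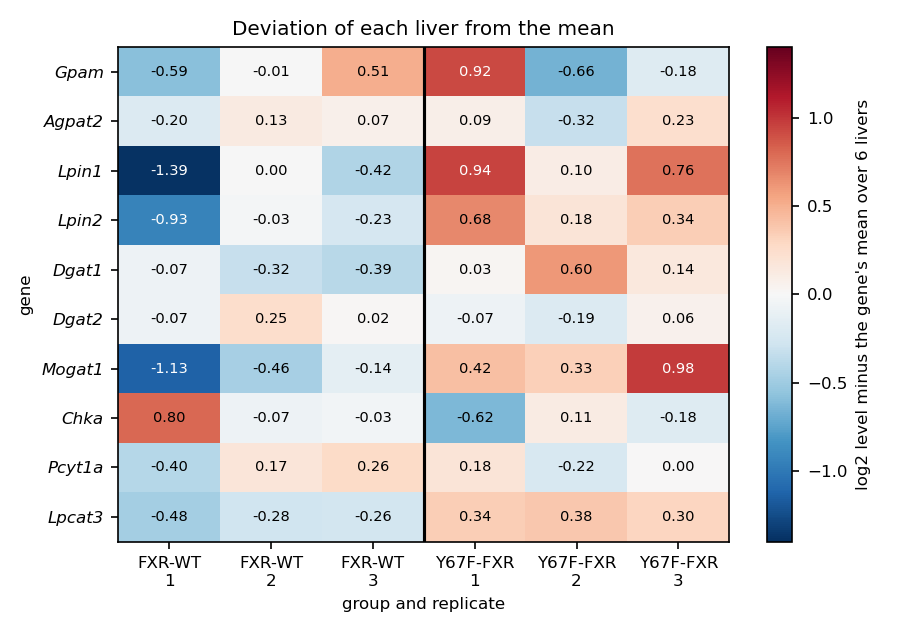
Log2 level of each enzyme (rows) in each liver (columns) minus its own mean over the 6 livers, with the value printed in each cell and colour from blue (lower) to red (higher). FXR-WT replicate 1 holds the lowest values of Lpin1 (-1.39), Mogat1 (-1.13), Lpin2 (-0.93), Lpcat3 (-0.48) and Pcyt1a (-0.40) and the highest of Chka (0.80). Gpam is high in FXR-WT replicate 3 (0.51) and Y67F-FXR replicate 1 (0.92).

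The upstream sequences of genes whose groups did not overlap are shown here, as far as RefSeq windows were at hand, since these genes were all fitted higher. Windows of 250 bases before the start of transcription, on GRCm38.p6, matched 8 of the 10 enzymes and were not matched for Dgat1 and Dgat2. Capitals mark motifs that were searched on both strands. These were the nuclear receptor half-site AGGTCA (14.0% of 32851 windows of that length), the E-box CACGTG (6.02%), the sterol response element TCACNCCAC (1.05%), the cAMP response element TGACGTCA (1.55%), CCAAT (33.8%) and the GC box GGGCGG (32.7%). The FXR repeat IR-1, the PPAR repeat DR-1 and the LXR repeat DR-4, each made of 2 half-sites, were also searched in their strict form, and 2, 11 and 5 of the windows held them. The window of Lpcat3 lies at chr6:124662854-124663103 on the plus strand, Lpin1 at chr12:16610967-16611216 on the minus strand, Lpin2 (the window of its most upstream start) at chr17:71183282-71183531 on the plus strand and Mogat1 at chr1:78510810-78511059 on the plus strand.
Lpcat3: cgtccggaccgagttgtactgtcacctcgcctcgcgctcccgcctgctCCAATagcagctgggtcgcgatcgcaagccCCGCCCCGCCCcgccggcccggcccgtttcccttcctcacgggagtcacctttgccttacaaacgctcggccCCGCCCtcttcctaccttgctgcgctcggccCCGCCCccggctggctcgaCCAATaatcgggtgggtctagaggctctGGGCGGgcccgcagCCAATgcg
Lpin1: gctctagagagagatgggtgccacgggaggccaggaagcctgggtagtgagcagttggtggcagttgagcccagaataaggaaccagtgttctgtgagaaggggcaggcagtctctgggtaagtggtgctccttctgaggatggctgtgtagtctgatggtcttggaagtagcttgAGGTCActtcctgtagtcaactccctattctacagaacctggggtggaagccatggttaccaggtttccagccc
Lpin2: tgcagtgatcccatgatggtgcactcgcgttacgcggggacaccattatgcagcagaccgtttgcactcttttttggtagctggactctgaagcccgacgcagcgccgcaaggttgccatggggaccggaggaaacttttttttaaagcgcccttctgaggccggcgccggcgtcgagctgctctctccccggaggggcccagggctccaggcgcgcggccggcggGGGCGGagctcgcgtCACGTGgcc
Mogat1: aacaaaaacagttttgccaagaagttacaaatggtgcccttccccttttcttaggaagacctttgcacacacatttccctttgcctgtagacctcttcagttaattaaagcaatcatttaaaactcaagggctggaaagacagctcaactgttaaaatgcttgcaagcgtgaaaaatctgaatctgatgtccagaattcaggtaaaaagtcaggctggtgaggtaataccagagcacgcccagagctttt
The Lpcat3 window, at 70.0% G or C, held 5 GC boxes, of which neighbours can overlap, and 3 CCAAT boxes. The Lpin1 window held 1 half-site, and the Lpin2 window shown 1 E-box and 1 GC box. The other Lpin2 windows held 1 GC box and 3 CCAAT boxes. The Mogat1 window, at 41.2% G or C, held none of these letters. The strict IR-1, DR-1 and DR-4 repeats were in none of the 13 windows of the 8 enzymes. Enzymes with overlapping groups also held these letters. A Gpam window held 1 half-site, 2 overlapping Pcyt1a windows held the sterol response element, and GC boxes were in windows of Gpam, Agpat2, Chka and Pcyt1a.

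Levels were ordered per kb of exon. Dgat2 was highest in both groups, at 237 ± 27.7 CPM per kb (SD, n = 3) in FXR-WT and 216 ± 18.9 CPM per kb (SD, n = 3) in Y67F-FXR livers. Agpat2 followed at 102 ± 11.8 and 102 ± 19.4 CPM per kb (SD, n = 3), apart from the genes above and below it in both groups. In FXR-WT livers the order went on with Lpcat3 (31.3), Lpin2 (30.4), Pcyt1a (17.9), Dgat1 (14.7), Gpam (9.45), Lpin1 (6.42), Chka (3.35) and Mogat1 (1.43 CPM per kb). The ranges over livers overlapped between Lpcat3 and Lpin2, Lpin2 and Pcyt1a, Pcyt1a and Dgat1, Gpam and Lpin1, and Lpin1 and Chka. In Y67F-FXR livers Lpin2 (51.7) came before Lpcat3 (50.0), Dgat1 (21.4) before Pcyt1a (17.4), Lpin1 (14.1) before Gpam (10.4) and Mogat1 (3.12) before Chka (2.38 CPM per kb), and in each of these pairs, and between Pcyt1a and Lpin1, the ranges overlapped.

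Ratios within a liver do not depend on the scaling of libraries, and 4 pairs of enzymes were compared in this way. They were not corrected for the trend with gene length, and Gpam (3828 bp) and Agpat2 (837 bp) differ in length. The level of Dgat2 was 12.8, 19.0 and 17.0 times that of Dgat1 per kb in FXR-WT replicates 1 to 3. It was 11.98, 7.41 and 12.2 times that of Dgat1 in Y67F-FXR replicates 1 to 3. The Dgat2 to Dgat1 ratio was lower in each Y67F-FXR liver than in each FXR-WT liver, with a difference of mean log2 ratio of -0.65 (exact two-sided permutation p = 0.1, the smallest that 3 against 3 livers can give, and 0.4 after Benjamini-Hochberg adjustment over 4 pairs). The Lpin1 to Lpin2 ratio was 0.170, 0.238 and 0.205 in FXR-WT and 0.280, 0.221 and 0.312 in Y67F-FXR livers, with overlapping groups and a difference of 0.41 on the log2 scale (exact permutation p = 0.2, adjusted p = 0.4). The Gpam to Agpat2 ratio differed by 0.05 (exact permutation p = 0.9) and the Chka to Pcyt1a ratio by -0.44 (exact permutation p = 0.7), both on the log2 scale and both with adjusted p = 0.9. The signs of these last ratios changed when FXR-WT replicate 1 was left out, to -0.13 and 0.049, and that of Gpam to Agpat2 also without Y67F-FXR replicate 1, to -0.35.

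**Figure D4:**
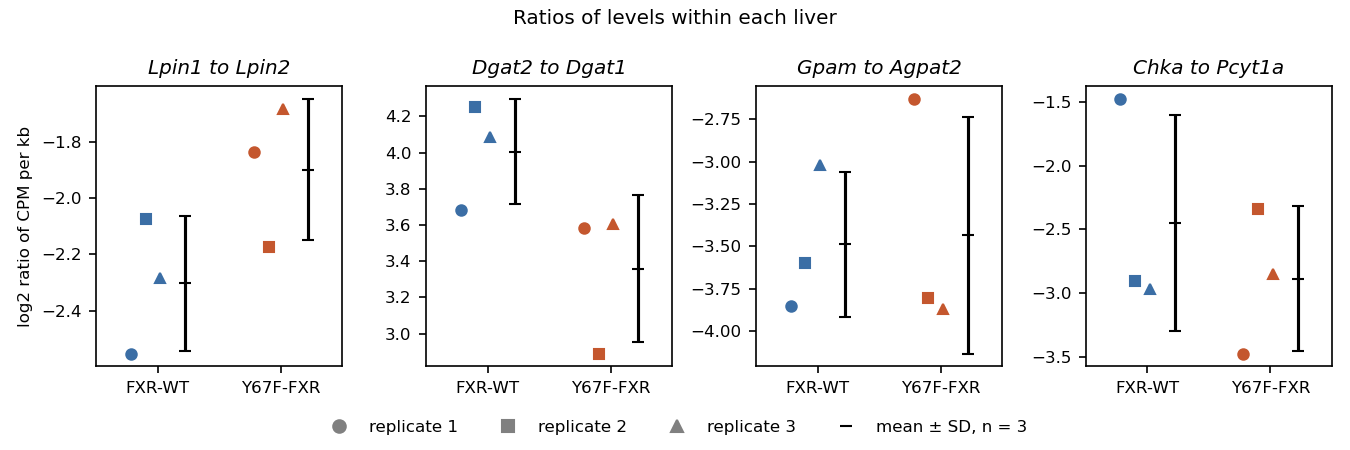
Log2 ratio of CPM per kb (vertical axes, which do not start at 0) of 4 pairs of enzymes in each liver, with a point shape for each replicate number and bars for the mean ± SD (n = 3). The Dgat2 to Dgat1 ratio sits between 3.68 and 4.25 in FXR-WT and between 2.89 and 3.60 in Y67F-FXR livers, while the groups of the other 3 ratios overlap.

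A list of 50 other genes of glycerolipid synthesis, chosen with earlier results of these data known, was examined in the same fit. The filter on low counts left 45 of them. Of the 45, 2 rose and none fell past the threshold, against 0.546% and 0.426% of all tested genes. Without a minimum fold the counts were the same. Before adjustment, 6 higher and 2 lower genes had a p under 0.05 in edgeR QL (6.75% and 6.67% of all tested genes), and DESeq2 called 1 gene lower, Acsl4, which is named here because it was the 1 such gene. Groups stood apart in 14 of these 45 genes (31.1%), of which 12 were higher and 2 lower, against 20.6% of all tested genes (10.2% higher and 10.5% lower). The median log2 fold change of the list was 0.16. Gpat3 and Etnk2 were the genes that rose. Gpat3, a glycerol-phosphate acyltransferase of the endoplasmic reticulum that the files list as Agpat9, rose from 10.6 ± 1.37 to 18.9 ± 0.940 CPM (SD, n = 3). Its values were 12.2, 9.60 and 10.1 CPM in FXR-WT and 20.02, 18.3 and 18.5 CPM in Y67F-FXR replicates 1 to 3, a fitted fold of 1.78 (edgeR QL, BH-adjusted p = 0.0429). Etnk2, an ethanolamine kinase of the liver, rose from 401 ± 59.6 to 718 ± 58.5 CPM (SD, n = 3), a fitted fold of 1.79 (edgeR QL, BH-adjusted p = 0.0483). Its values were 456, 408 and 338 CPM in FXR-WT and 688, 785 and 680 CPM in Y67F-FXR replicates 1 to 3. The call of Etnk2 was lost when any 1 liver was left out (log2 fold change 0.73 to 0.94, adjusted p from edgeR 0.0557 to 0.166). The call of Gpat3 held without FXR-WT replicate 1 (adjusted p = 0.0498 in edgeR) and was lost without each of the other livers, with log2 fold changes from 0.77 to 0.86 and adjusted p in edgeR from 0.0902 to 0.175. It was also lost with scaling by library totals (log2 fold change 0.77, adjusted p = 0.0676 in edgeR). With a block for replicate number the calls of Gpat3 and Etnk2 were both lost (adjusted p = 0.186 each in edgeR).

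Gpat4, the other acyltransferase of the endoplasmic reticulum for the opening step (listed as Agpat6), was next, at 177, 165 and 140 CPM in FXR-WT and 251, 365 and 274 CPM in Y67F-FXR replicates 1 to 3. Its fitted fold was 1.85 with a 95% interval of 1.403 to 2.43 (edgeR QL, BH-adjusted p = 0.0702). Gpat4 was called by DESeq2, by edgeR's likelihood ratio test, and by edgeR QL with no filter on low counts or without FXR-WT replicate 1 and Y67F-FXR replicate 2 together. Per kb, Gpat4 was the most abundant of the 3 acyltransferases named here for that step, at 40.7 ± 4.76 CPM per kb (SD, n = 3) in FXR-WT livers, against 9.45 ± 3.49 for Gpam and 3.69 ± 0.477 for Gpat3. In Y67F-FXR livers these levels were 75.2 ± 15.3, 10.4 ± 6.11 and 6.58 ± 0.327 CPM per kb (SD, n = 3). Among the steps of the list, all 3 genes of glycerol-3-phosphate supply were fitted higher (median log2 fold change 0.36), as were all 3 tested genes of monoacylglycerol acylation and lipid droplet budding (median 0.55) and 7 of 9 for phosphatidylserine, phosphatidylinositol and cardiolipin (median 0.22). Of all tested genes, 6474 of 12453 were fitted higher. The other acyltransferases of glycerol-phosphate and lysophosphatidate, Gpat3 and Gpat4 included, had 6 of 8 fitted higher (median 0.33), the other CDP-choline and CDP-ethanolamine enzymes 6 of 8 (median 0.22), and the other lysophospholipid acyltransferases 3 of 4 (median 0.10). The 4 acyl-CoA synthetases had a median of -0.25, with 2 fitted lower and 2 higher, and the 6 other phosphatidate phosphatase and lipin phosphatase genes a median of 0.06, with 3 lower and 3 higher.

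**Figure D5:**
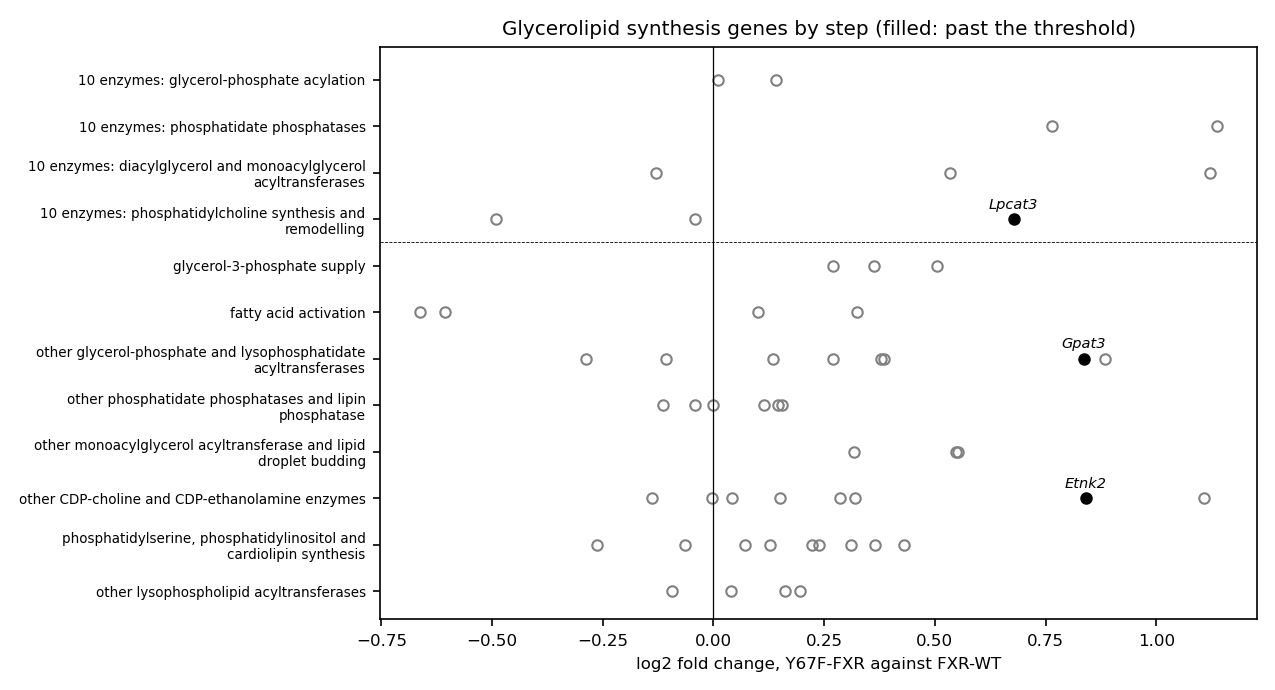
Log2 fold change (horizontal axis, Y67F-FXR against FXR-WT) of the 10 enzymes (above the dashed line) and the 45 other tested genes (below it), 1 point a gene, by step of glycerolipid synthesis. Filled points passed the threshold, and they are Lpcat3 (0.68), Gpat3 (0.84) and Etnk2 (0.84).

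Of 8 transcription regulators of lipid synthesis, none was called by edgeR QL, by DESeq2 or by edgeR's likelihood ratio test, and 3 had an unadjusted p under 0.05, as had 13.4% of all tested genes. Groups did not overlap in 5 of the 8, 3 higher and 2 lower, against 20.6% of all tested genes (10.2% higher and 10.5% lower). Ppargc1b, a coactivator of fatty acid and lipoprotein genes, averaged 2.98 ± 0.588 CPM in FXR-WT and 4.75 ± 0.563 CPM in Y67F-FXR livers (SD, n = 3 each). Mlxipl, which encodes the glucose-sensing factor ChREBP, was at 177 ± 28.6 and 124 ± 22.4 CPM (SD, n = 3), and Ppara, the fatty acid receptor of hepatocytes, at 211 ± 51.0 and 315 ± 44.7 CPM (SD, n = 3). These 3 genes were among the 5, and their BH-adjusted p were 0.225, 0.255 and 0.255 by edgeR QL. The others were Srebf1 and Nr1h2, which encode SREBP-1 and LXRbeta and are named here after their values were seen. Srebf1 was at 149, 86.0 and 86.8 CPM in FXR-WT and 76.9, 76.6 and 76.4 CPM in Y67F-FXR replicates 1 to 3, and Nr1h2 averaged 38.9 ± 0.464 and 44.2 ± 3.43 CPM (SD, n = 3). The median log2 fold change of the 8 regulators was -0.02, with 4 fitted lower and 4 higher. These regulators were also chosen with earlier results of these data known.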

How the data were processed

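RNA-seq was performed on 6 whole livers, 3 per group, with paired-end reads of 100 bases. The authors deposited raw counts per gene on mm9, made with featureCounts 1.4.6-p4 without regard to strand. Per the file headers, each mate added its own count, and ambiguous or multi-mapped reads were left out. The submitters' processing notes name bcl2fastq 2.17.1.14, Trimmomatic 0.36, FastQC 0.11.5, STAR 2.5.3a and edgeR. A deposited table of the authors' own fold changes, mean log2 CPM, p-values and FDR was not used.

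Counts of 6 libraries were fitted with edgeR 4.0.16 (limma 3.58.1, R 4.3.3) by quasi-likelihood, with filterByExpr, which left 12453 genes, and TMM factors. Adjusted p are Benjamini-Hochberg values over these genes, and a gene was called at adjusted p under 0.05 and a fold over 1.5. SE and 95% intervals come from the same fit. CPM per kb used the exon length in the files. Totals of 19551113 to 22053320 reads set the precision, with 23 to 102 reads for Mogat1, the least counted of the 10 genes. On simulated counts for 12332 genes, 97.5% of 200 genes changed by 2 on the log2 scale were recovered, and 7.14% of 210 calls were false. Smaller changes, such as those fitted for the 10 enzymes, were not simulated, so recovery at those sizes is not known. The libraries of each group differed by more than sampling noise. The p-values of edgeR QL set the group difference of a gene against a spread between livers that is estimated in part from all tested genes. Ratios were compared by exact permutation over livers.

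Alternatives were RLE factors, library totals, DESeq2 1.42.0, edgeR's likelihood ratio test, no filter, CPM above 1 in at least 3 libraries, a replicate block, loess offsets for gene length (span 0.3), no minimum fold, and each liver left out. The members and lists were chosen with earlier results of these data known. Named genes are the 10 members, every called gene and the 3 smallest p-values among the 45 other tested genes and among 8 regulators, and Nr1h4. Outside this rule, Emg1 is named for its overlap with Lpcat3, and marker genes, Acsl4, Srebf1 and Nr1h2 after their values were seen. Promoter windows were RefSeq sequences on GRCm38.p6, a build other than that of the counts, so that positions were not compared. Figures were drawn with matplotlib 3.10.9.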

Additional observations from a re-analysis of the deposited data

How the results depend on the processing

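Of the 10 members, the number called was 0 with library totals, 0 with the replicate block, 0 without FXR-WT replicate 3 and Y67F-FXR replicate 1 together, and 0 to 0 with 1 liver left out. It was 3 with DESeq2 and 3 with the likelihood ratio test (Lpin1, Mogat1 and Lpcat3). The joint omissions were chosen after seeing the data. Without FXR-WT replicate 1 and Y67F-FXR replicate 2 together, Lpin1 was called (log2 fold change 1.04, adjusted p = 0.0196 in edgeR), and Lpcat3 fell below the minimum fold (0.58 on the log2 scale). Of the pathway genes, the number higher was 1 with library totals, 0 with the block, 0 without FXR-WT replicate 3 and Y67F-FXR replicate 1, and 0 to 1 with 1 liver left out, and it was 3 with DESeq2, the likelihood ratio test, no filter, and without FXR-WT replicate 1 and Y67F-FXR replicate 2 (Gpat3, Etnk2 and Gpat4). With the block Gpat3 and Etnk2 each had an adjusted p of 0.186 in edgeR. The number lower was 1 with DESeq2 and 1 with length offsets (Acsl4). The pathway median was 0.091 with library totals, which moved the median of all genes from 0.01 to -0.06, and 0.15 to 0.22 with 1 liver left out. Over all genes, the counts lower and higher were 215 and 214 with DESeq2, 226 and 221 with the likelihood ratio test, 124 and 123 with length offsets, 97 and 105 without FXR-WT replicate 1 and Y67F-FXR replicate 2, and 4 and 1 without FXR-WT replicate 3 and Y67F-FXR replicate 1. Without the filter 81 genes were lower and 86 higher. With 1 liver left out, 7 to 33 genes were lower and 2 to 35 higher, and the fewest were called without FXR-WT replicate 3 (9 genes).

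The replicate block gave 6 genes lower and 2 higher. Same-numbered livers deviated with correlations of -0.52, -0.08 and 0.12, so that the numbers were not taken as pairs. With the block the log2 fold change of Lpcat3 was 0.68 (adjusted p = 0.232 in edgeR) and that of Agpat2 -5.83e-05. Signs also changed for Agpat2 with library totals (-0.057) and for Gpam without FXR-WT replicate 3 and Y67F-FXR replicate 1 (-0.13). With 1 liver left out, log2 fold changes ranged from -0.44 to 0.45 for Gpam, from -0.10 to 0.14 for Agpat2 and from -0.22 to 0.084 for Pcyt1a. The Gpam to Agpat2 ratio ranged from -0.35 to 0.29, the Chka to Pcyt1a ratio from -0.71 to 0.049, the Dgat2 to Dgat1 ratio from -0.81 to -0.41, and the Lpin1 to Lpin2 ratio from 0.28 to 0.54. Fitted folds of Lpin1, Lpin2, Dgat1, Mogat1 and Lpcat3 were above 1 in each alternative. The causes were not tested.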
